A study of Macaca mulatta with 2 samples.

Results

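The genes described here are 33 genes of the transforming growth factor beta (TGF-beta) and bone morphogenetic protein (BMP) pathways, taken by symbol from a single-cell count matrix of 24037 features. All 33 symbols were present in both libraries. They fall into 7 layers: 8 ligands, 4 latent binding proteins, 5 receptors, 6 SMADs, 2 nuclear co-repressors, 2 antagonists and 6 target genes. The cells came from the trabecular meshwork (TM), the porous tissue at the front of the eye through which aqueous humour drains, of rhesus macaques. One library carried the label glaucoma, from animals with spontaneous primary open-angle glaucoma, and the other the label normal, from healthy controls; no drug, allele or transgene is named for either. How many animals or eyes contributed is not stated in the labels, nor are ages, sexes or pressures. The protocol was the same for both, collagenase dissociation followed by droplet-based 3′ chemistry.

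TGF-beta ligands are secreted in a latent form, held in the matrix by latent binding proteins. Once released, they signal through paired serine/threonine kinase receptors to SMAD2 and SMAD3, while BMP ligands signal to SMAD1 and SMAD5, and both arms share SMAD4. In the TM, TGFB2 is known for raising matrix deposition and outflow resistance, and BMP signalling is known for opposing it, with secreted antagonists such as gremlin setting the balance.

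The glaucoma library held 38765808 unique molecular identifiers (UMIs, each a counted RNA molecule) in 10624 barcodes and the normal library 25042621 in 7028. After filtering, 8337 and 5385 cells remained, with medians of 2751 and 2702 UMIs per cell. The libraries shared 17 barcode sequences, 11 of them among the kept cells. The kept cells formed 26 clusters, built without any pathway gene, and 9 named classes plus the unnamed cluster 3 had at least 50 cells in each library. The named classes are TM, stromal fibroblast, muscle, pericyte, vascular endothelium, macrophage, T or NK cell, and non-myelinating and myelinating Schwann cell. Each name means cells that carried the markers of that type (TM-like, pericyte-like and so on). With 1 library a group there was no replicate and no test. Levels are counts per 1e+06 UMIs of the class (CPM), and brackets are exact 95% intervals that cover counting error only. Diagnosis cannot be told apart from animal, eye or dissection. Because 3′ counting captures genes unequally, levels are compared between cells and libraries, not between genes.

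The TM-like class comprised clusters 1, 9, 10, 16 and 18, with 2422 glaucoma and 883 normal cells. All 15 TM markers were detected in both libraries, with summed levels of 28870 CPM in the glaucoma and 37078 CPM in the normal library. Most of each sum was MYOC, at 22948 and 31018 CPM. Of the 15 markers, 8 had the higher level in the glaucoma library. The makeup of the class differed. Cluster 1 held 61.5% of the glaucoma TM-like cells and 18.8% of the normal ones, cluster 9 held 6.85% and 57.6%, and cluster 10 held 24.5% and 5.44%. Ratios are therefore also given with shared weights, each cluster counting in both libraries by its cells over both. The members themselves took no part in defining these clusters.

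The ligands divided among cell types. TGFB1, the isoform best known from immune cells, was highest in T or NK cells and macrophages in both libraries, at 177 [142, 218] and 157 [142, 173] CPM in glaucoma and 89.01 [53.6, 139] and 95.2 [73.9, 121] CPM in normal cells. The intervals of those neighbours overlapped in each library. In TM-like cells TGFB1 stood at 45.6 and 23.3 CPM.

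TGFB2, the isoform long studied in glaucomatous aqueous humour, was highest in unnamed cluster 3, at 353 [321, 388] CPM in glaucoma and 471 [445, 498] CPM in normal cells. Cluster 3 was led by GPHA2, HAPLN1 and KRT19 and carried 8 TM and 8 stromal fibroblast markers, so it was left unnamed. TGFB2 came next in stromal fibroblasts in the glaucoma library (197 CPM) and in TM-like cells in the normal library (367 CPM). TGFB3 had its highest levels in the same cluster 3 and in TM-like cells, at 52.3 and 50.4 CPM in glaucoma and 74.2 and 51.7 CPM in normal cells. In the glaucoma library those neighbours overlapped.

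The BMP ligands were each concentrated elsewhere. BMP2, a classical osteogenic BMP, was highest in pericytes, at 111 [89.3, 137] and 293 [257, 332] CPM. BMP3, an atypical family member that opposes other BMPs, was highest in TM-like cells, at 457 [445, 468] and 195 [184, 206] CPM. In muscle cells it was nearly absent, with 5 UMIs in the glaucoma and 3 in the normal library. BMP4 was shared between TM-like cells and stromal fibroblasts at 100.3 and 87.1 CPM in glaucoma and 74.7 and 75.00 CPM in normal cells, with overlapping intervals. BMP5 was highest in stromal fibroblasts and cluster 3, at 244 and 255 CPM in glaucoma and 304 and 264 CPM in normal cells. BMP7 was highest in myelinating Schwann cells, at 105 [75.4, 141] and 93.6 [70.9, 121] CPM, against 1 UMI per library in all TM-like cells. It was also counted in cluster 15, a stromal fibroblast cluster, at 48.0 and 52.6 CPM from 12 and 21 UMIs.

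The latent binding proteins were chiefly genes of stromal fibroblasts. LTBP1, which tethers latent TGF-beta to the matrix, reached 277 [255, 299.9] CPM there in glaucoma and 489.8 [463, 517] CPM in normal cells. LTBP3 reached 634 and 721 CPM and LTBP4 71.1 and 41.3 CPM in the same class. LTBP2, which does not bind latent TGF-beta and is a gene of inherited childhood glaucoma, stood apart from the other 3. It was highest in cluster 3 and TM-like cells, at 13.5 and 11.7 CPM in glaucoma and 26.1 and 25.7 CPM in normal cells, with overlapping intervals.

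Among the receptors, TGFBR2, the type II TGF-beta receptor, was highest in non-myelinating Schwann cells, at 501 [458, 548] and 628 [577, 683] CPM, and far lower in TM-like cells, at 20.1 and 34.7 CPM. TGFBR3, the co-receptor betaglycan that presents TGFB2, was highest in stromal fibroblasts and myelinating Schwann cells, at 459.9 and 388 CPM in glaucoma and 759 and 664 CPM in normal cells. BMPR2, the type II BMP receptor, was highest in vascular endothelium, at 180.1 [161, 200.4] and 244 [207, 287] CPM. The type I receptors TGFBR1 and BMPR1A were sparsely counted. TGFBR1 had 35 and 19 UMIs in TM-like cells and was highest in macrophages (13.5 and 20.99 CPM). BMPR1A did not exceed 10.8 CPM in any glaucoma group or 14.96 CPM in any normal group.

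SMAD1 and SMAD5, which carry BMP signals, were highest in endothelium. SMAD1 reached 685 [649.7, 722] CPM in lymphatic-type endothelium of the glaucoma library, against 112 CPM in its vascular endothelium. The normal library held 33 cells of that lymphatic type, with 71 SMAD1 UMIs or 795 [621, 1002] CPM, so the high level was seen in both. SMAD5 was highest in vascular endothelium, at 218 [197, 240.4] and 311 [269, 359] CPM. SMAD4, the common partner, stood at 38.7 and 54.1 CPM in its highest class, non-myelinating Schwann cells, and 17.7 and 17.04 CPM in TM-like cells. SMAD2 had 57 and 30 UMIs in TM-like cells, SMAD3 23 and 29, and the inhibitory SMAD6 10 and 3, too few to rank.

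The co-repressor SKIL was highest in lymphatic-type endothelium in the glaucoma library (185 CPM) and in cluster 3 in the normal library (284 CPM). The 33 normal cells of the lymphatic type had 213 [128, 332] CPM, an interval that includes the cluster 3 value. Among the 10 compared groups SKIL was highest in cluster 3 in both libraries. Its relative SKI stayed at or below 8.57 CPM in glaucoma and 11.5 CPM in normal groups. Among the compared groups, GREM1, the BMP antagonist gremlin, was scarce outside TM-like cells. It stood at 13.6 and 11.3 CPM in TM-like cells and at 1.54 CPM or less in the other 9 compared groups of the glaucoma library. CHRDL1, another secreted BMP antagonist, reached 77.02 and 71.2 CPM in stromal fibroblasts, overlapping cluster 3 in the glaucoma library at 72.1 CPM.

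Each target gene had its own distribution. The ID genes encode inhibitors of DNA binding and are direct BMP targets. ID1 was highest in vascular endothelium (1058 [1012, 1106] and 1069 [988, 1154] CPM) and next in TM-like cells (776 and 715 CPM). Lymphatic-type endothelium, where SMAD1 was highest, had only 109 CPM of ID1 in the glaucoma library. ID2 was highest in T or NK cells (924 and 1274 CPM), ID3 in cluster 3 (2991 and 1863 CPM) and TM-like cells (2219.8 and 1975 CPM), and ID4 in myelinating Schwann cells (266 and 268 CPM). CCN1 and CCN2, matricellular proteins induced by TGF-beta and by mechanical YAP signalling, were both highest in TM-like cells. Their levels there were 624 and 991 CPM for CCN1 and 174 and 163 CPM for CCN2.

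This ordering was largely shared by the libraries. For the 32 members with at least 100 UMIs in kept cells, the Spearman correlation of levels over the 10 groups between libraries had a median of 0.90 and ranged from 0.44 to 0.98. The highest of the 10 groups was the same in both libraries for 24 of the 32. The 10 groups within a library share its depth and its free RNA, so these values are descriptive.

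**Figure D1:**
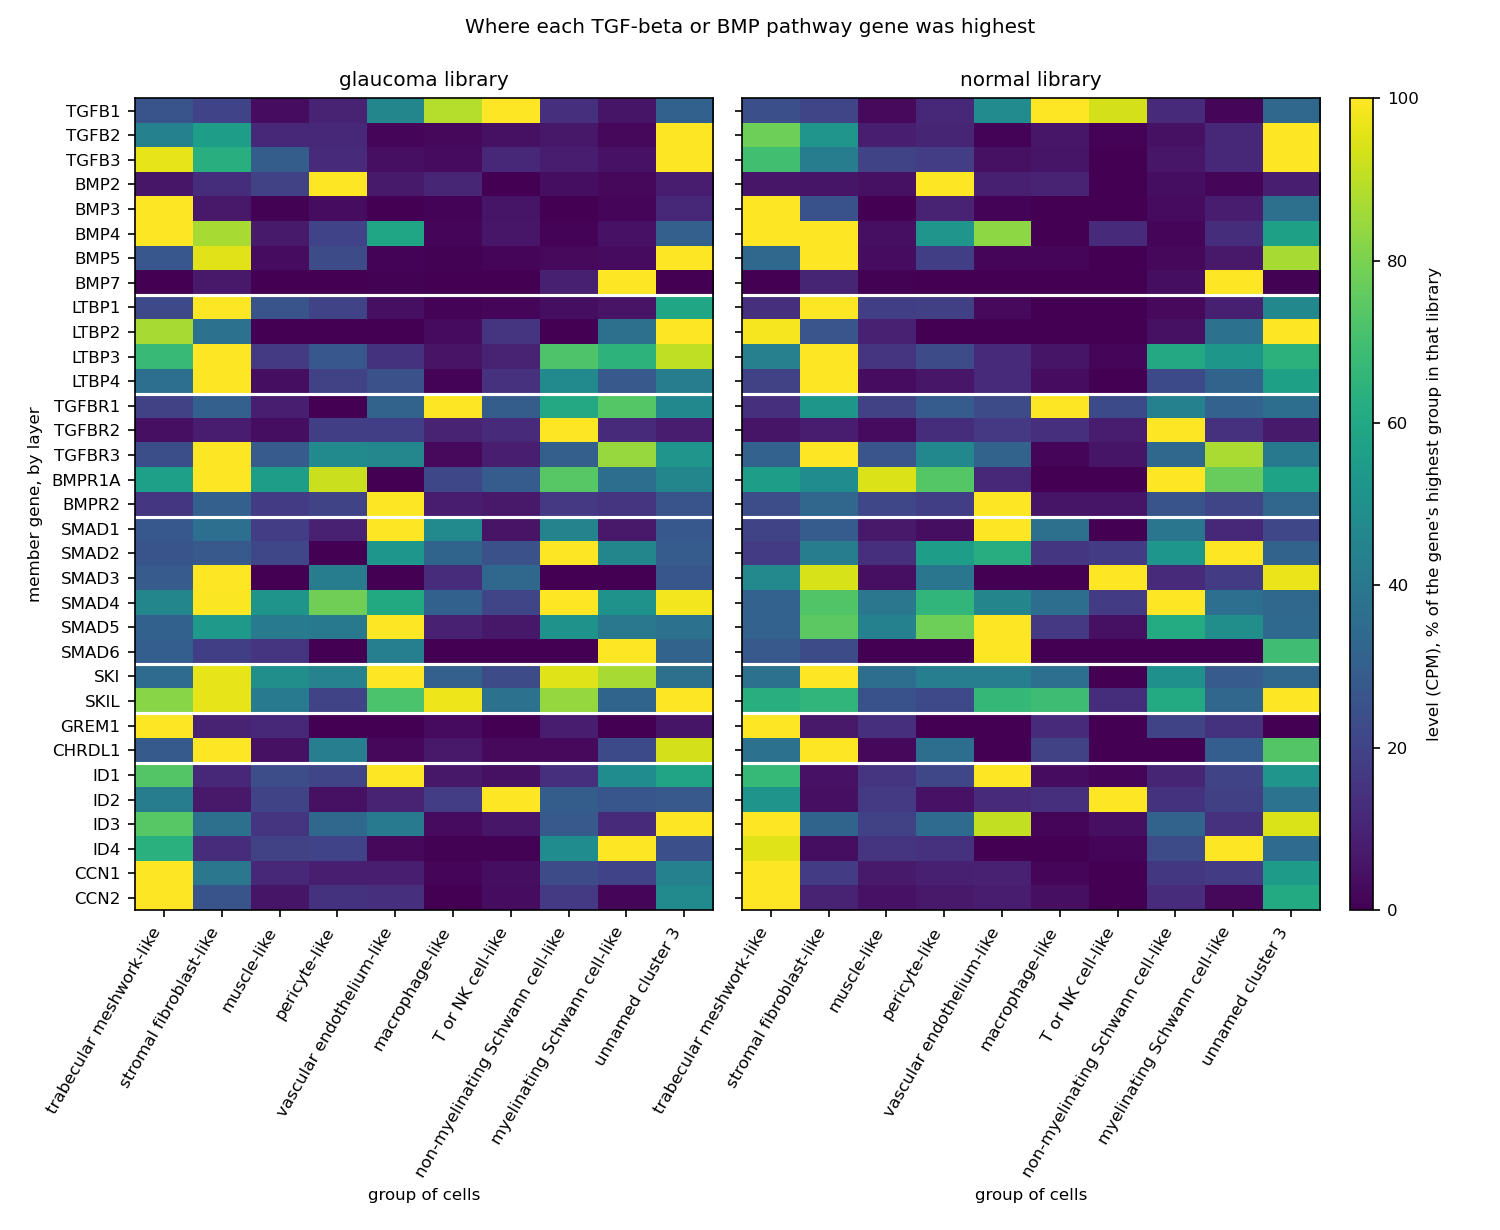
Level of each of the 33 genes (rows, by layer) in each of the 10 compared groups of cells (columns) in the glaucoma and the normal library, coloured by CPM as a percent of the gene's highest group in that library. TGFBR2 was highest in non-myelinating Schwann cells (501 CPM in glaucoma, 628 CPM in normal) and BMP3 in TM-like cells (457 and 195 CPM).

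In TM-like cells, the members leaned lower in the glaucoma library. Over the whole class the lowest layer median was that of the receptors, at -1.06. With shared cluster weights it was that of the 2 antagonists, at -0.82, with the receptors at -0.76. A gene is called different here when its level differed at least 2-fold with a counting interval that excludes equality, among genes with at least 100 UMIs in the class. Of the 33 members, 27 had enough UMIs. BMP3 and LTBP4 were called higher (2 of 27, against 5.9% of all 8614 genes measured the same way). TGFB2, BMP2, LTBP2, TGFBR3, BMPR1A and BMPR2 were called lower (6 of 27, against 5.51% of all genes). In either direction 8 of 27 were called, against 11.4% of all genes. The other 19 fell between these limits, and 6 members (BMP7, TGFBR1, SMAD2, SMAD3, SMAD6 and SKI) had too few UMIs. The median log2 ratio of glaucoma to normal over the 27 was -0.30, against 0.00 over all genes. With shared cluster weights the medians were -0.31 and -0.16, and 5 members reached 2-fold: LTBP4 higher, and BMP2, LTBP2, BMPR2 and GREM1 lower. The shares of all genes at 2-fold under those weights were 3.22% higher and 6.03% lower.

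**Figure D2:**
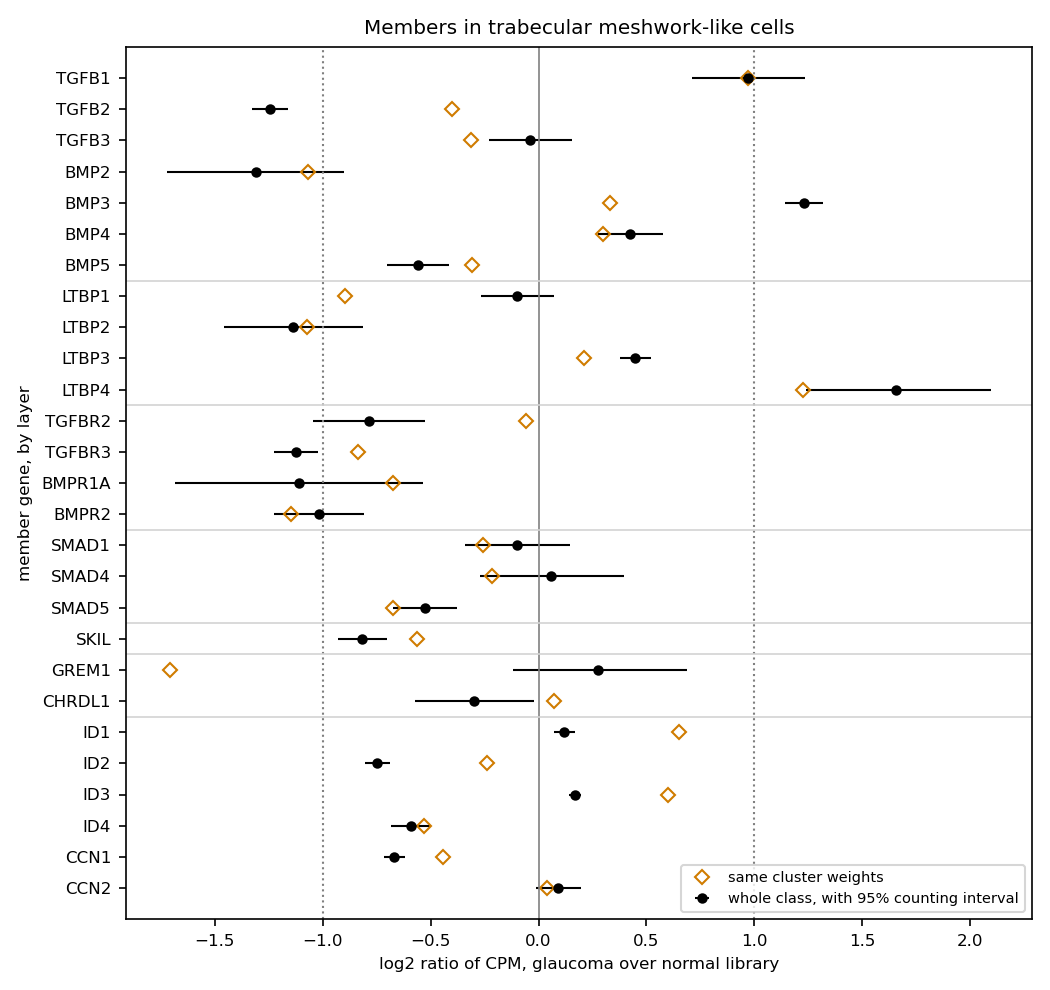
Log2 ratio of glaucoma to normal CPM in TM-like cells for the 27 genes with at least 100 UMIs, with exact 95% counting intervals, beside the value with shared cluster weights. BMP3 stood at 1.23 for the whole class and 0.33 with shared weights, and BMPR2 at -1.02 and -1.15.

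Among the ligands, TGFB1 had 612 UMIs in glaucoma and 153 in normal TM-like cells. These gave 45.6 [42.1, 49.4] and 23.3 [19.7, 27.3] CPM, a log2 ratio of 0.97 [0.71, 1.24], just under the 2-fold limit. TGFB1 had the higher value in the glaucoma cells of all 5 TM-like clusters, and its log2 ratio with shared weights was 0.97.

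TGFB2 went the other way. It stood at 155 [148, 162] CPM in glaucoma and 367 [352, 382] CPM in normal TM-like cells, a log2 ratio of -1.24 [-1.33, -1.16], from 2076 and 2409 UMIs. The distance was smaller with shared weights, at a log2 ratio of -0.40. Within cluster 9, where TGFB2 was highest in normal TM-like cells, the libraries stood at 234 and 443 CPM. Within cluster 1 they stood at 133 and 171 CPM. In cluster 10 the glaucoma value was the larger, 167 against 119 CPM, with an interval that included equality. TGFB3 was level over the class, at 50.4 and 51.7 CPM, and its log2 ratio was below 0 in each of the 5 clusters.

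BMP3 had 6128 UMIs in glaucoma and 1281 in normal TM-like cells. Its levels were 457 [445, 468] and 195 [184, 206] CPM, a log2 ratio of 1.23 [1.14, 1.32]. BMP3 was itself unevenly spread over TM-like clusters, in the same order in both libraries: cluster 10 was highest (567 and 471 CPM), then cluster 1 (496 and 399 CPM), then cluster 9 (238 and 154 CPM). Clusters 10 and 1 were the ones with larger shares of the glaucoma than of the normal TM-like cells. With shared weights the log2 ratio was 0.33, and in cluster 16 it was -0.050.

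BMP2 was low in TM-like cells, with 93 and 113 UMIs, or 6.93 [5.595, 8.49] and 17.2 [14.2, 20.7] CPM, a log2 ratio of -1.31 [-1.72, -0.90]. The direction was the same in all 5 clusters and the log2 ratio with shared weights was -1.07. With cells thinned to 1000 UMIs it was -0.64 and the call was lost. Few molecules were left: BMP2 was then seen in 0.67% of 2375 glaucoma and 1.05% of 857 normal cells. BMP4 and BMP5 differed less over the class, with log2 ratios of 0.43 and -0.56, but varied by cluster. In cluster 10 BMP4 stood at 153 and 34.1 CPM, the normal value from only 6 UMIs. BMP5 had a log2 ratio of -1.27 [-1.59, -0.95] in cluster 1 and 0.99 [0.19, 1.91] in cluster 10, on opposite sides of 0. The normal side of cluster 10 was 48 cells with 13 BMP5 UMIs. In cluster 10 the stromal fibroblast markers also differed, with a summed level of 3821 CPM in glaucoma and 1942 CPM in normal cells (10 of 12 higher in glaucoma, 3 at 0 in normal cells); their part in these ratios was not tested.

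The latent binding proteins split. LTBP4 stood at 25.9 [23.2, 28.7] and 8.22 [6.17, 10.7] CPM, a log2 ratio of 1.65 [1.24, 2.10], and had higher values in the glaucoma cells of all 5 clusters. LTBP2 was called lower, at 11.7 [9.94, 13.7] and 25.7 [21.99, 29.9] CPM, a log2 ratio of -1.14 [-1.46, -0.81], and had lower values in all 5. With shared weights the log2 ratios were 1.23 for LTBP4 and -1.07 for LTBP2. With cells thinned to 1000 UMIs, LTBP4 stood at 1.83 and LTBP2 at -0.63, under 2-fold. LTBP4 was then seen in 3.12% of glaucoma and 0.93% of normal cells, and LTBP2 in 1.43% and 2.22%. In clusters 1, 9 and 16 alone LTBP4 was also under 2-fold, at 0.71, 0.99 and 0.78. LTBP1 was nearly level over the class (61.3 and 65.6 CPM) although below 0 in each of the 5 clusters. In cluster 9 it had 7 UMIs in glaucoma and 239 in normal cells, or 5.12 and 52.1 CPM. With shared weights the LTBP1 log2 ratio was -0.90. LTBP3 had a log2 ratio of 0.45 [0.38, 0.52] and 0.21 with shared weights.

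All 4 receptors with enough UMIs were below 0, while 50.3% of all genes were above 0. The receptor median was -1.06 (-0.76 with shared weights), against 0.00 (-0.16) over all genes. Of the 4, 3 were called lower, against 5.51% of all genes. BMPR2 stood at 28.6 [25.8, 31.6] and 57.98 [52.3, 64.1] CPM from 384 and 381 UMIs, a log2 ratio of -1.02 [-1.23, -0.81]. It had lower values in the glaucoma cells of all 5 clusters. The levels in glaucoma and normal cells were 28.5 and 55.5 CPM in cluster 1, 31.4 and 58.7 CPM in cluster 9, and 24.3 and 58.4 CPM in cluster 16. BMPR1A was called lower over the class (52 and 55 UMIs, log2 ratio -1.11 [-1.69, -0.54]). Its log2 ratio was -0.67 with shared weights, and in cluster 16 the sign turned, to 1.23. When each cell was thinned to 1000 UMIs, none of the 3 receptors called lower reached 2-fold. The log2 ratio was -0.11 for BMPR1A, -0.89 for BMPR2 and -0.86 for TGFBR3. BMPR1A was then seen in only 0.76% of glaucoma and 0.82% of normal cells. Glaucoma TM-like cells had a median of 5015.5 UMIs and normal ones 7161.

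TGFBR3 stood at 110.1 [105, 116] and 239.8 [228, 252] CPM, a log2 ratio of -1.12 [-1.23, -1.02], and -0.84 with shared weights. The clusters did not behave alike. In cluster 9 it stood at 67.3 CPM in glaucoma and 273 CPM in normal cells, while in cluster 1 it stood at 88.5 and 81.8 CPM with a log2 ratio of 0.11 [-0.20, 0.44]. TGFBR2 had a log2 ratio of -0.79 [-1.05, -0.53] over the class and -0.06 with shared weights.

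None of the 3 SMADs with enough UMIs was called. SMAD1 and SMAD4 had intervals that included equality, with log2 ratios of -0.10 [-0.34, 0.15] and 0.06 [-0.27, 0.39]. SMAD5 stood at 68.1 and 98.2 CPM, a log2 ratio of -0.53 [-0.67, -0.38]. The co-repressor SKIL stood at 102 and 179 CPM, a log2 ratio of -0.82 [-0.93, -0.70], and was below 0 in all 5 clusters.

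For GREM1 the class and its main cluster differed. Over the class it stood at 13.6 [11.7, 15.8] and 11.3 [8.84, 14.1] CPM, with overlapping intervals. Most of its UMIs lay in cluster 1, 182 of 183 in glaucoma and 64 of 74 in normal cells. Within cluster 1 the levels were 19.7 CPM in glaucoma and 58.2 CPM in normal cells, a log2 ratio of -1.56 [-1.98, -1.13]. The normal side of that cluster comprised 166 cells. CHRDL1 had a class log2 ratio of -0.30 [-0.57, -0.02] and 0.07 with shared weights.

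The ID targets differed from one another. ID1 stood at 776 [762, 791] and 715 [694, 735] CPM over the class, a log2 ratio of 0.12, and ID3 at 2219.8 [2195, 2245] and 1975 [1941, 2009] CPM, a log2 ratio of 0.17. Both had higher values in the glaucoma cells of every TM-like cluster. In cluster 1 ID1 stood at 818 and 537 CPM, and in cluster 9 at 1275 and 834 CPM. ID3 stood at 2175 and 1583 CPM in cluster 1 and at 3103 and 2254 CPM in cluster 9. With shared weights the log2 ratios were 0.65 for ID1 and 0.60 for ID3. Cluster 10, with 24.5% of the glaucoma and 5.44% of the normal TM-like cells, had less ID1 in both libraries (270.0 and 125 CPM).

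ID2 and ID4 stood below 0 without being called, at 393 and 659 CPM and at 169 and 255 CPM, with log2 ratios of -0.75 [-0.81, -0.69] and -0.59 [-0.68, -0.50]. With shared weights they were -0.24 and -0.53. Some clusters went the other way: ID2 stood at 0.89 [0.23, 1.64] in cluster 10 and ID4 at 0.53 [0.17, 0.89] in cluster 16. The normal ID2 value in cluster 10 came from 19 UMIs in 48 cells. CCN1 stood at 624 and 991 CPM, a log2 ratio of -0.67 [-0.72, -0.62], with cluster 1 at 668 and 1021 CPM. Clusters 10 and 18 lay above 0, at 316 and 284 CPM and at 357 and 136 CPM. CCN2 was level, with a log2 ratio of 0.09 [-0.01, 0.20].

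Immediate early and dissociation stress genes also differed in TM-like cells. Of 18 with enough UMIs in TM-like cells, 1 (JUND) was called higher and 10 lower, against 5.9% and 5.51% of all genes. Their median log2 ratio was -1.42, and -0.93 with shared weights. EGR1 stood at 547 CPM in glaucoma and 2203 CPM in normal TM-like cells. Their part in the ratios of the member genes was not tested.

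Over the 5 TM-like clusters, the smallest of which (18) held 42 glaucoma and 100 normal cells, TGFB1, LTBP4, ID1 and ID3 were above 0 in all (4 of 27, against 9.91% of all genes). TGFB3, BMP2, LTBP1, LTBP2, BMPR2 and SKIL were below 0 in all (6 of 27, against 11.7% of all genes). Cluster 18 counted few of these molecules, with 1 and 0 UMIs of LTBP4 and 0 and 1 of BMP2. When at least 3 of the 5 intervals also had to exclude equality, TGFB1, ID1 and ID3 were left above (3 of 27, against 3.22%). LTBP1, BMPR2 and SKIL were left below (3 of 27, against 4.12%). TGFB2 and BMP3, the called members with the most UMIs, were in neither set.

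**Figure D3:**
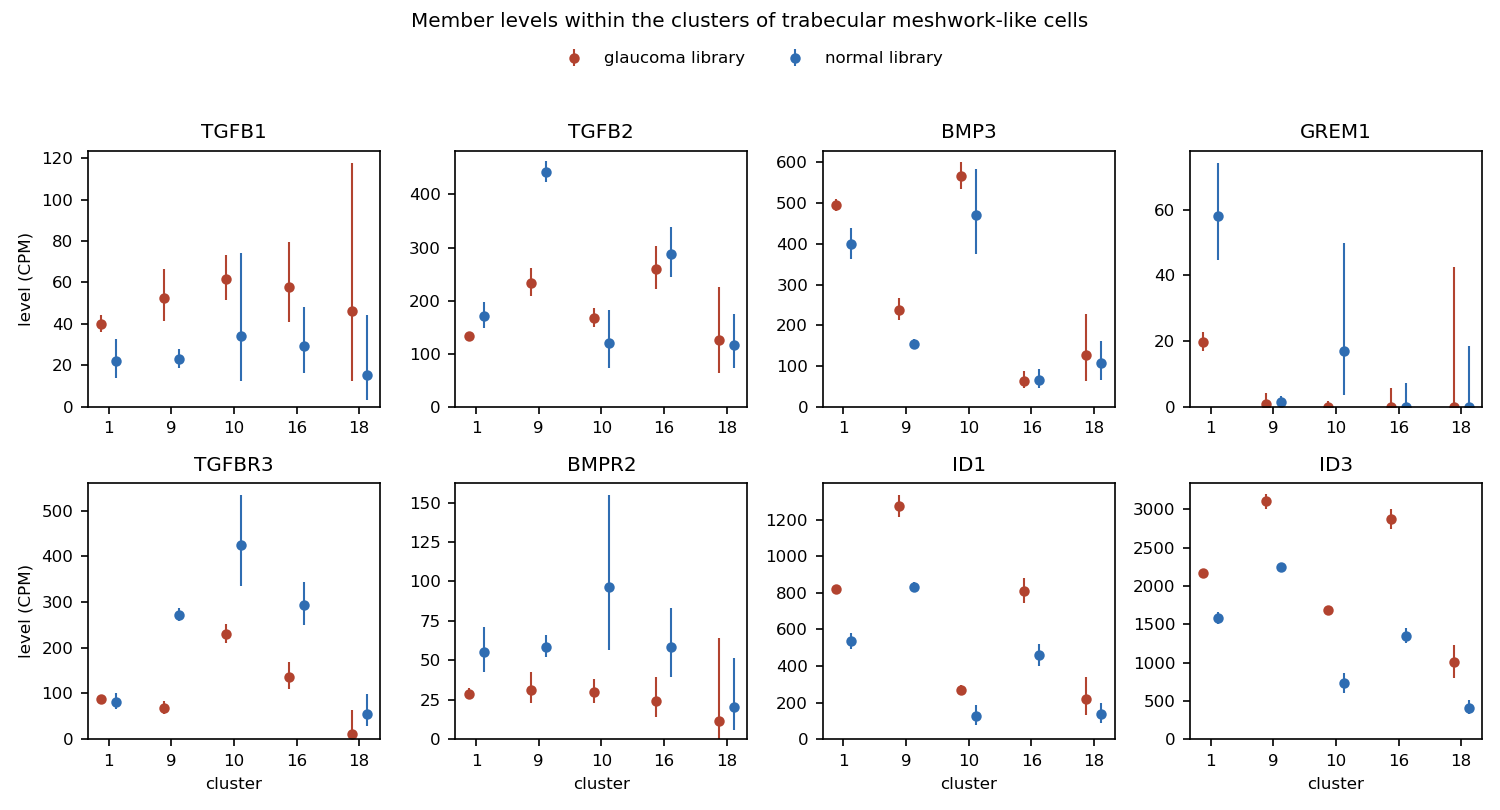
CPM of selected members in each of the 5 TM-like clusters in the glaucoma and the normal library, with exact 95% counting intervals. BMPR2 was lower and ID1 higher in the glaucoma cells of each cluster, while GREM1 was counted mostly in cluster 1 (19.7 CPM in glaucoma, 58.2 CPM in normal).

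Outside the TM-like class, few members passed the limits. In stromal fibroblasts 3 of 23 were called higher (2.32% of all genes) and 0 lower (7.68%), and the 3 were targets. ID1 stood at 123 [109, 138] and 52.4 [44.01, 61.97] CPM, ID4 at 33.9 [26.6, 42.6] and 9.95 [6.499, 14.6] CPM and CCN2 at 45.4 [36.9, 55.3] and 16.5 [11.9, 22.2] CPM. All 6 target genes were above 0 in these cells, against 38.7% of all genes. Their median log2 ratio was 1.02, against -0.19 over all genes. The named 3 each had the higher value in the glaucoma cells of both stromal clusters, 0 and 15. Cluster 0 held 802 of the 882 glaucoma and 874 of the 990 normal cells. Its ratios therefore largely repeat those of the class. With doublets kept, however, none of the 3 reached 2-fold: the log2 ratio was 0.08 for ID1, 0.30 for CCN2 and -0.10 for ID4. With the stricter cell filter they were 0.99, 0.77 and 0.46. MYOC, a TM-defining gene, stood in stromal fibroblasts at 15.6% of its TM level in glaucoma and 12.4% in normal cells, and the part of TM RNA in these values was not tested.

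In pericytes, 2 of 9 members were called lower (4.84% of all genes). BMP2 stood at 111 and 293 CPM, a log2 ratio of -1.40 [-1.76, -1.04], and SMAD5 at 88.5 and 243 CPM, a log2 ratio of -1.45 [-1.87, -1.05] and -0.91 with the stricter cell filter. SKIL was called lower in vascular endothelium (1 of 13, against 1.72%), at 88.4 and 189 CPM, a log2 ratio of -1.09 and -0.92 with shared weights. It was also called lower in cluster 3 (1 of 22, against 5.74%), at 124 and 284 CPM. In muscle, 0 of 17 members were called (6.08% of all genes in either direction).

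Schwann cells had a single called member in each class. In myelinating Schwann cells it was ID1 (1 of 8 higher, against 2.02%), at 515 [448, 591] and 218 [183, 259] CPM. In non-myelinating Schwann cells it was ID4 (1 of 11 higher, against 2.93%), at 129 and 61.00 CPM. That class was mostly cluster 2 in glaucoma (812 of 875 cells) and mostly cluster 14 in normal cells (362 of 574), and within cluster 2 the ID4 log2 ratio was 0.49 [-0.05, 1.06]. With shared weights it was 0.37.

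Immune cells differed in ID3. In macrophages it stood at 81.9 [71.4, 93.6] and 36.4 [23.8, 53.3] CPM (1 of 8 called higher, against 3.36%), and in T or NK cells at 181 [145, 222] and 79.6 [46.4, 128] CPM (1 of 3, against 6.04%). These were low levels, 3.69% and 1.84% of the TM level in macrophages and 8.14% and 4.03% in T or NK cells. MYOC stood at 5.28% of its TM level in glaucoma T or NK cells and 0.589% in normal ones, and in macrophages at 1.36% and 0.614%. BMP3 stood at 5.72% of its TM level in glaucoma T or NK cells. In T or NK cells the ID3 log2 ratio was 1.18, but 0.12 with the libraries clustered separately, 0.20 with pathway genes in the clustering and 0.52 when thinned. The part of free TM RNA in the immune ID3 values was not tested.

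Several members had 1 direction over cell types. TGFB1 was above 0 in all 6 groups with enough UMIs, each with an interval above 0, and its log2 ratios lay between 0.72 and 0.99. They were 0.85 in stromal fibroblasts, 0.82 in vascular endothelium, 0.72 in macrophages and 0.99 in T or NK cells. TGFBR3 was below 0 in 8 of 8 groups, SMAD5 in 8 of 8 and SKIL in 7 of 7. For SMAD5 and SKIL every interval lay below 0, and the log2 ratios ranged from -1.45 to -0.38 and from -1.20 to -0.49. Of the 12 members with enough UMIs in at least 6 groups, 1 was above 0 in all and 3 were below 0 in all. Over 3283 genes the shares were 17.2% and 23.9%, so such a shared direction was common among genes in these libraries.

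BMPR2 and LTBP1 were below 0 in 5 of 5 groups, with 5 and 4 intervals below 0. For these counts and the next one, of ID3, shares of all genes are not given here, so they have no background. ID3 was above 0 in 9 of 10 groups, the exception being vascular endothelium, at 1245 and 1795 CPM. There the 4 target genes with enough UMIs were all below 0, with a median log2 ratio of -0.65, although ID1 was level (-0.01 [-0.14, 0.12]). The smaller vascular cluster, 19, lay above 0 for ID1 (0.53 [0.23, 0.84]) and CCN1 (1.88 [0.10, 4.29]). The difference between stromal fibroblasts and vascular endothelium was not tested. The median over all genes was -0.19 in stromal fibroblasts and -0.09 in vascular endothelium, and that of the stress genes was -0.46 and -0.56.

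**Figure D4:**
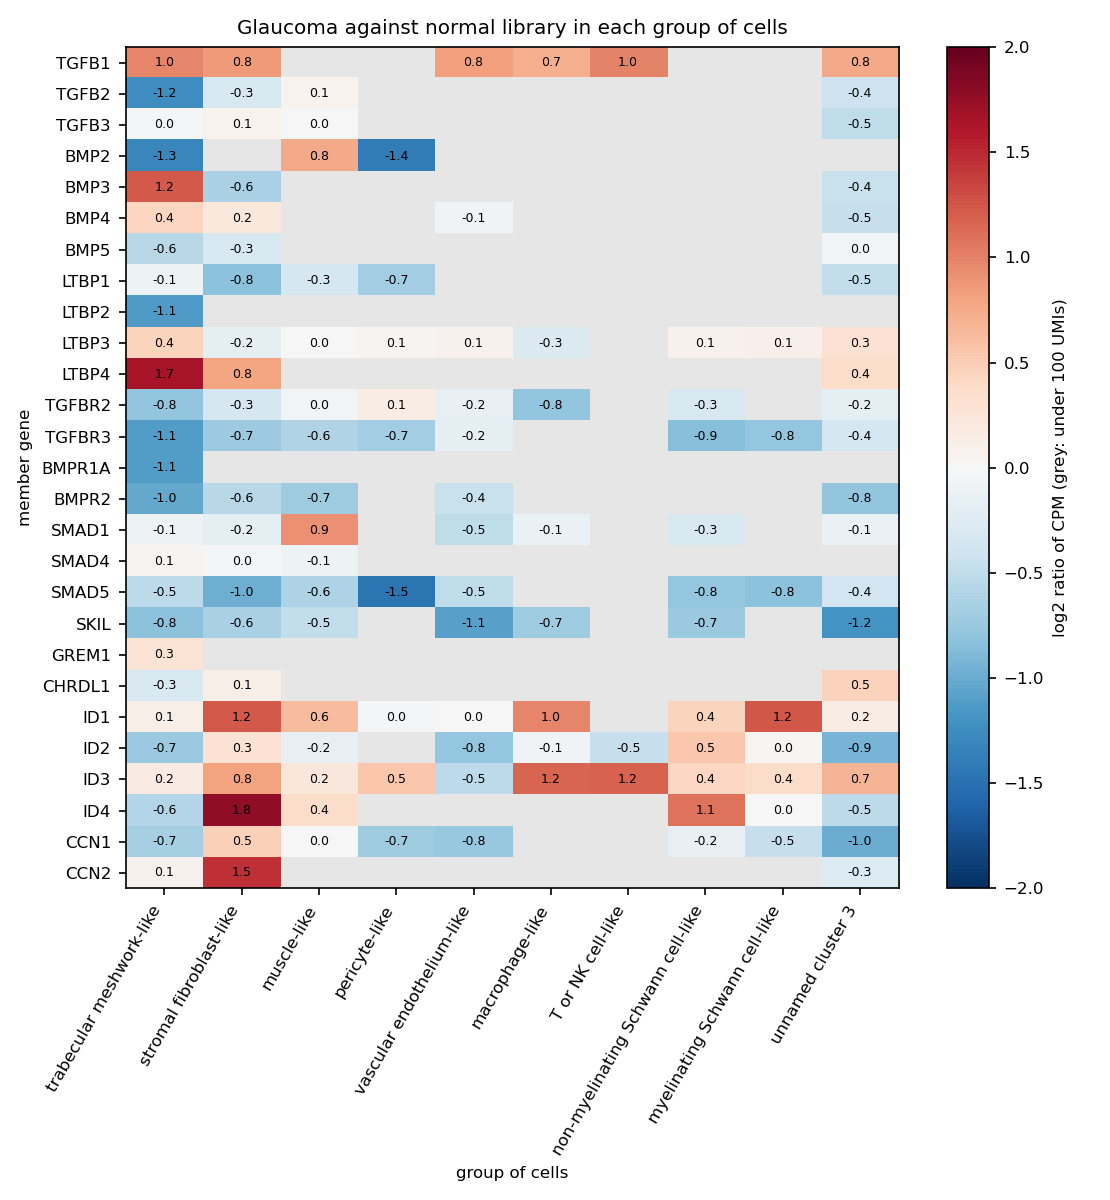
Log2 ratio of glaucoma to normal CPM for each member (rows) in each of the 10 compared groups of cells (columns), where the gene had at least 100 UMIs; others are grey. TGFB1 was above 0 in all 6 of its groups and SMAD5 below 0 in all 8.

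Other genes of the pathways were read from lists of related components. Of 7 other ligands and activators with enough UMIs in TM-like cells, 3 were called higher and 0 lower, against 5.9% and 5.51% of all genes. GDF10, a ligand related to BMP3, had a log2 ratio of 1.66, THBS1, an activator of latent TGF-beta, 1.20, and FBN2, a fibrillin, 1.30. With shared weights these were 0.03, 0.84 and -0.24. No other receptor (0 of 2) or intracellular regulator (0 of 10) was called. Of 8 other antagonists, 1 was called higher and 1 lower, against 5.9% and 5.51% of all genes. SOSTDC1 was the higher (43.2 and 6.54 CPM) and BMPER the lower (7.08 and 16.7 CPM). Their log2 ratios were 2.72 and -1.24, and 1.68 and -0.65 with shared weights. In cluster 16 BMPER turned to 0.49.

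Among 11 TGF-beta-type target genes, COL3A1, a fibrillar collagen, was called higher (1 of 11, against 5.9% of all genes). Its log2 ratio was 1.11, and -0.18 with shared weights. TGFBI, a TGF-beta-induced matrix protein, was called lower, at 84.8 CPM in glaucoma and 452 CPM in normal TM-like cells, a log2 ratio of -2.41 and -0.92 with shared weights. KLF10 and BHLHE40, early transcriptional targets, were also called lower, at -1.43 and -1.60, and stood at -0.97 and -0.83 with shared weights. That made 3 of 11 called lower, against 5.51% of all genes. Of 5 BMP-type targets 1, RUNX2, was called lower (-1.53), and of 7 mechanical targets 1, NT5E (-1.39), against the same 5.51% of all genes. With shared weights RUNX2 stood at -0.95 and NT5E at -1.10.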

How the data were processed

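Single-cell 3′ RNA libraries of TM were analysed, 1 library a group. The deposited matrices hold counts of UMIs per gene and barcode; the authors made them with Cell Ranger 4.0 and used Seurat 3.0, per the submitters' processing notes, while the matrix header names Cell Ranger 6.0.0, and the genome build is not given in the sources used here. Cells with at least 500 genes and under 20% mitochondrial UMIs were kept (at least 1000 genes and under 10% in a stricter alternative), and Scrublet doublets (296 and 45) were removed. Both libraries were clustered together (scanpy 1.11.5, 2000 variable genes, 30 components, 15 neighbours, Leiden resolution 1, no integration), leaving out 109 pathway genes. Clusters were named when at least 3 markers of 1 of 19 sets stood at least 2-fold above the median cluster; ties and clusters led by another type's genes stayed unnamed. Levels are CPM of summed counts with exact Poisson 95% intervals; ratios have exact conditional binomial intervals. Shared weights average the cluster levels in both libraries by each cluster's cells over both; these ratios have no interval. Genes needed 100 UMIs over both libraries and groups 50 cells in each. The interval and calling steps were tested on simulated counts drawn from the counting model that the intervals assume. That simulation held no variation between animals, cells or clusters, so it checks the calculation only. All 33 members are named, and of the other lists the genes called in TM-like cells. Members, lists and naming rules were chosen with earlier results of these data known.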

Additional observations from a re-analysis of the deposited data

Results flagged for a closer look

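For 4 members, a call in some cell types met a ratio of opposite sign in others, with an interval that excluded equality; these differences between cell types were not tested. BMP2 had a log2 ratio of -1.31 in TM-like cells and -1.40 in pericytes, but 0.75 in muscle. BMP2 in muscle was counted mostly in cluster 8, which made up a larger share of the glaucoma muscle cells, and within that cluster the log2 ratio was 0.23. BMP3 had 1.23 in TM-like cells (0.33 with shared weights), but -0.64 in stromal fibroblasts and -0.45 in cluster 3. Within stromal clusters 0 and 15 it was -0.84 [-1.33, -0.36] and 0.48 [-0.66, 1.61]. ID3 had 1.17 in macrophages and 1.18 in T or NK cells, but -0.53 in vascular endothelium. ID4 had 1.77 in stromal fibroblasts and 1.08 in non-myelinating Schwann cells, but -0.59 in TM-like cells and -0.52 in cluster 3. These ID4 signs were not fixed: with doublets kept the stromal value was -0.10, and in TM-like cluster 16 alone ID4 was 0.53 [0.17, 0.89]. ID3 in T or NK cells was 0.12 with the libraries clustered separately, and BMP3 in TM-like cluster 16 was -0.050.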

How the results depend on the processing

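The number of members called in TM-like cells was 8 of 27, against 11.4% of all genes. With shared cluster weights it was 5, against 3.22% of all genes higher and 6.03% lower. With cells thinned to 1000 UMIs, which leaves few molecules of scarce genes, it was 4. In clusters 1, 9 and 16 alone it was 3, 3 and 2. These cluster settings were chosen after seeing the data, and fewer genes have enough UMIs there. The number lay between 6 and 11 under the remaining settings. These were doublets kept, stricter filters, separate clustering, pathway genes in the clustering, median scaling, top barcode removed, and minimums of 20 UMIs or none. Apart from the whole class and shared weights, the shares of all genes called are not given here, so those counts have no background. The median log2 ratio was -0.30 and ranged from -0.46 to -0.15. Among called values, signs turned for BMP3 (-0.050) and BMPR1A (1.23) in cluster 16 alone, for TGFBR3 (0.11) in cluster 1 alone, and for ID4 in stromal fibroblasts with doublets kept (-0.10); the cause was not tested. Of the 19 members tested but not called in TM-like cells, 9 turned sign under at least 1 alternative (TGFB3, BMP4, BMP5, SMAD1, SMAD4, GREM1, CHRDL1, ID4, CCN2), GREM1 from 0.28 to -1.71 with shared weights. No paired analysis was possible because each group has 1 library. Depth limits TGFBR1, SMAD2, SMAD3, SMAD6, SKI and BMP7 in TM-like cells.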

Other observations

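Groups too small to compare held a few further levels. The unnamed cluster 21 had 75 glaucoma cells, and in them BMP3 stood at 166 [134, 203] CPM, GREM1 at 16.2 [7.42, 30.8] CPM, ID2 at 476 [420.0, 537] CPM and CCN1 at 355 [307, 408] CPM. In the 120 normal cells of unnamed cluster 17, CHRDL1 stood at 168 [132, 210.4] CPM, LTBP1 at 365 [311, 425] CPM and TGFBR3 at 566 [499, 640.1] CPM. The melanocytes of the glaucoma library had 78.1 [50.99, 114] CPM of LTBP1.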
